A study of Zea mays with 17 samples.

Results

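Meiocytes were compared with other somatic cells of the maize (Zea mays) anther at a length of 2.0 mm. The comparison uses 4 of the 17 libraries of the series, 2 of meiocytes (ME) and 2 of other somatic cells (OSC), which were assigned by the cell type, length and replicate in their titles. All 4 came from inbred W23, given as wild type in the genotype label and as the bz2 line in the growth protocol, and no mutant or treatment separates the groups. Plants were grown in a greenhouse, and captured cells of every kind had total RNA extracted before CEL-seq2 libraries were made. The other libraries are tapetum (TAP) and fixed whole anthers (FA) at 2.0 mm, and the same 4 kinds of material at 1.5 mm.

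Meiocytes are the anther cells that enter meiosis and give rise to pollen. The tapetum is the layer of somatic cells that encloses and nourishes them, and the wall outside it consists of further somatic layers that end in the epidermis. The labels do not say which of those layers OSC holds. In laser capture microdissection, selected cells are cut free from a section with a laser, and neighbouring cells can be cut with them. CEL-seq2 primes on poly(A) tails and counts the 3′ ends of transcripts. Plant mitochondria and plastids keep small genomes for parts of the respiratory chain, the photosynthetic complexes and their own ribosomes. Most of their transcripts carry no stable poly(A) tail, so a count in such a library does not measure them as it measures nuclear messenger RNA.

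The ME libraries held 974064 and 559302 counts, and the OSC libraries held 1505065 and 2635680. Where a gene has 0 counts, counting error alone still allows 3, which is 3.08 and 5.36 CPM (counts scaled to a common library total) in ME and 1.99 and 1.14 CPM in OSC. Across the 16940 genes tested, Pearson's r of log2 CPM was 0.767 between the ME libraries and 0.884 between the OSC libraries, and between 0.159 and 0.187 for the 4 pairs of an ME with an OSC library. Genes are not independent of each other, so these values only describe the libraries. The labels do not say that replicates are separate plants, so the p-values measure only the spread between libraries, which may be technical. In bulk samples, fewer cells of a type and less RNA per cell cannot be told apart. The nuclear gene identifiers have no names in the sources used here, so the labelled cell types could not be checked against marker genes, and no role can be given for a nuclear gene.

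The ME libraries held a narrower set of detected genes than the OSC libraries. At a depth of 250000 counts, the ME libraries held 10786 and 9891 genes with a count, and the OSC libraries held 15068 and 15891. Both ME libraries lay below both OSC libraries, and also below the TAP libraries (12928 and 12731) and the FA libraries (16446 and 16086). The 100 most abundant rows took 28.5% and 32.3% of ME counts and 23.9% and 20.2% of OSC counts. To reach 50 percent of the counts took 484 and 384 rows in ME, 809 and 994 in OSC, 693 and 777 in TAP, and 1123 and 1084 in FA. The smallest two-sided p that an exact permutation test allows for 2 and 2 libraries is 0.333, so these values have no test.

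Of the 16940 genes tested, 6246 (36.9%) were called different between ME and OSC at a Benjamini-Hochberg adjusted p under 0.05 in edgeR's quasi-likelihood test. Among them 1516 (8.95%) were higher in ME and 4730 (27.9%) were higher in OSC. Of the calls, 24.3% were thus higher in ME, and this share was 34.5% when every captured library was thinned to 280760 counts, where 1668 genes were called higher in ME and 3167 higher in OSC. Library depth moved with cell type here, since both ME libraries were smaller than both OSC libraries. The median log2 fold change of all tested genes was -1.40. It was -1.21 with RLE size factors, -1.05 with library totals and -0.65 with thinned libraries. With 1 of the 4 libraries left out it ran from -2.76, without ME replicate 1, to -0.74, without OSC replicate 2. Changes are best read against that shift, whose size is uncertain. The libraries of the groups did not overlap in CPM for 3893 genes (23.0%) with ME higher and 8071 genes (47.6%) with OSC higher. Among the calls, 1501 of 1516 and 4728 of 4730 did not overlap. The number of calls depended on every library of the contrast, at 3926 without ME replicate 1, 4107 without ME replicate 2, 3221 without OSC replicate 1 and 3148 without OSC replicate 2.

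The direction of the calls moved with abundance, taken as the mean CPM of both groups and not scaled by gene length. No gene was called among the 703 with a mean under 1 CPM. From 1 to 10 CPM, 139 genes were called higher in ME and 981 higher in OSC, and 12.4% of the calls were thus on the ME side. From 10 to 100 CPM the counts were 783 and 3096, or 20.2% on the ME side. From 100 to 1000 CPM they were 555 and 627, or 47%, and at 1000 CPM or more they were 39 and 26, or 60%. The tested genes numbered 4730 from 1 to 10 CPM, 9505 from 10 to 100 CPM, 1923 from 100 to 1000 CPM and 79 at 1000 CPM or more. Genes called higher in OSC were thus mostly of low to middling abundance, as were the tested genes as a whole. The most abundant genes were called in both directions.

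**Figure D1:**
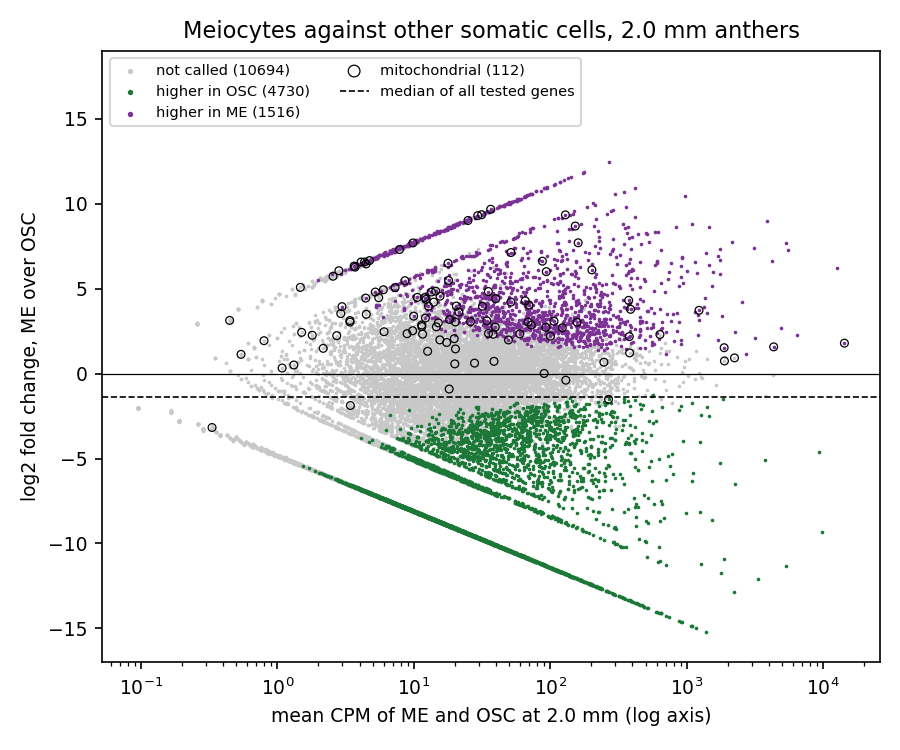
Each point is 1 of the 16940 tested genes, with the mean CPM of the ME and OSC groups at 2.0 mm on a log axis and the fitted log2 fold change of ME over OSC on the other axis. The 1516 genes called higher in ME are purple, the 4730 higher in OSC are green, black circles mark the 112 mitochondrial rows, and the dashed line is the median of -1.40. The straight lower and upper edges are genes with no count in one of the groups, whose fitted values depend on the prior count.

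Many of the differences were between counts and no counts. Of the genes called higher in OSC, 2797 (59.1%) had no count in either ME library, and of those called higher in ME, 263 (17.3%) had none in either OSC library. Both ME libraries held fewer counts than both OSC libraries, so these shares were not taken at equal depth. The share over all tested genes is not given here. A gene with no count in a group passed the filter only through libraries of other groups. The fitted median size was 4.29 log2 units for genes higher in ME and 7.65 for genes higher in OSC. With every such gene set to the bound that 3 counts per library allows, the medians were 3.80 and 3.46, so the larger fitted size on the OSC side rests on genes at 0 in ME. Fitted changes over 16-fold were found for 822 genes (54.2%) on the ME side and 3984 (84.2%) on the OSC side.

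The nuclear gene Zm00001d050069 had the highest mean CPM among those called higher in ME. It stood at 24570 and 25081 CPM in ME and at 364 and 138 CPM in OSC. The TAP libraries held 404 and 29.1 CPM and the FA libraries 3235 and 3783 CPM. The ME libraries were close together and far above every other library of 2.0 mm anthers. The fitted log2 fold change was 6.24 (SE 1.30, adjusted p = 0.00344 in edgeR's quasi-likelihood test). Zm00001d052035 had the largest fitted change on the ME side, with 530 and 547 CPM in ME and no count in either OSC library. It was at least 344-fold higher in ME (adjusted p = 0.000324, edgeR), and it held 6.40 and 1.55 CPM in TAP and 25.1 and 39.8 CPM in FA.

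On the OSC side, Zm00001d048165 had the highest mean CPM, with 32440 and 6736 CPM in OSC and 37.0 and 44.7 CPM in ME. The OSC libraries differed several-fold from each other, and both stayed far above ME. The fitted log2 fold change was -9.30 (SE 1.60, adjusted p = 0.00124, edgeR). The gene was also abundant outside OSC, at 21545 and 10899 CPM in TAP and at 13258 and 11787 CPM in FA. Zm00001d039432 had the largest fitted change on that side, with 3373 and 2166 CPM in OSC and no count in either ME library. It was at least 656-fold lower in ME (adjusted p = 7.78e-05, edgeR), and it held 2.63 and 0.310 CPM in TAP. Unlike Zm00001d048165, it was near 0 in the tapetum. All 4 genes were called in the same direction under each of 14 alternative settings.

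The nuclear genes called higher in ME made up 48.8% and 50.3% of the counts in the ME libraries. These 1421 genes took 3.28% and 3.34% of OSC counts, 7.50% and 7.40% of TAP counts, and 13.6% and 11.7% of FA counts. The 4723 nuclear genes called higher in OSC took 62.2% and 59.1% of OSC counts and 3.22% and 3.10% of ME counts. They also took 42.4% and 40.4% of TAP counts and 40% and 42.5% of FA counts. The FA libraries were not in the fit that chose the sets, and the TAP libraries entered it through the filter, the scaling and the pooled spread but not through the contrast. Carry-over between captured cells was not tested.

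**Figure D2:**
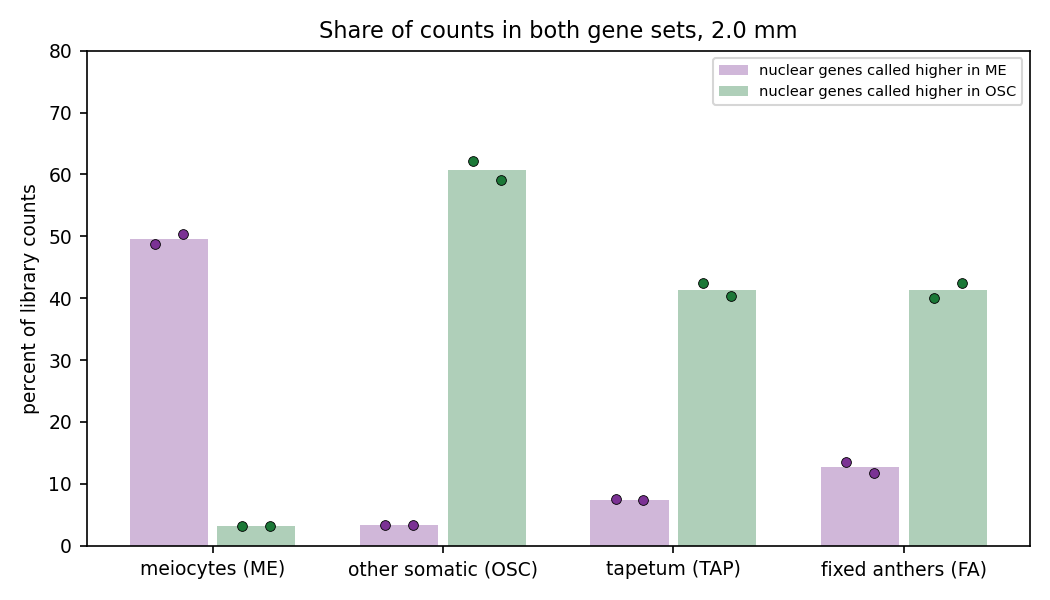
The vertical axis is the percent of each library's counts at 2.0 mm that fell in the 1421 nuclear genes called higher in ME (purple) and the 4723 called higher in OSC (green). Points are single libraries and bars are means of 2 libraries. In ME and OSC the heights are fixed by how the sets were chosen, while TAP, which was in the fit but not in the contrast, and FA, which was in neither, hold 40% to 42.5% in the OSC set and 7.40% to 13.6% in the ME set.

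The median gene of the ME set had 131 and 123 CPM in ME, 4.65 and 4.17 CPM in OSC, 13.2 and 9.91 CPM in TAP, and 30.7 and 28.5 CPM in FA. The median gene of the OSC set had 0 counts in both ME libraries, 44.5 and 47.4 CPM in OSC, 15.4 and 15.8 CPM in TAP, and 29.8 and 28.5 CPM in FA. The ME and OSC levels are fixed by how the sets were chosen, and a level in TAP or FA that lies between them is not read further.

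Some genes had no count in either of the other captured cell types. In the ME set, 249 genes had no count in OSC and 109 of those had none in TAP either. In the OSC set, 2794 had no count in ME and 640 of those had none in TAP either. All 109 and all 640 had counts in FA. Nearly all genes of both sets did, so this does not set these rows apart. FA replicate 1 had no count for 9 of the 1421 genes of the ME set and 2 of the 4723 of the OSC set. How many of all tested genes had no count in these groups is not given here. The median level was 23.3 CPM in ME and 3.22 CPM in FA for the 109 genes, and 27.8 CPM in OSC and 8.62 CPM in FA for the 640. Their highest group means were 344 CPM in ME and 1034 CPM in OSC.

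Nuclear genes called higher in ME had a lower median in the deposited length column. Their median length was 1731 bases (quartiles 1125 and 2848), against 2177 bases (quartiles 1420.5 and 3627.5) for genes higher in OSC and 2257.5 bases (quartiles 1398 and 4000) for genes not called. The quartiles overlap widely, and no test was made over genes.

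Mitochondrial rows that were called at 2.0 mm were higher in ME, with a single exception. Most of these rows were not called at 1.5 mm, where 56% of all genes higher in ME were called in the same direction. The test of the difference between the lengths passed for 1 mitochondrial row. The mitochondrial rows took 4.23% and 6.05% of ME counts, against 1.10% and 1.31% of OSC counts, 0.934% and 0.956% of TAP counts and 1.33% and 1.05% of FA counts. Of the 208 mitochondrial rows, 112 were tested, of which 58 were called higher in ME and 1 higher in OSC, against 8.95% and 27.9% of all genes. The median log2 fold change of the 112 was 3.13, where that of all tested genes was -1.40. A median above 0 was found with each scaling, and over all 13 alternatives in which they were tested it ran from 2.91 to 4.25. Without OSC replicate 1, OSC replicate 2 or ME replicate 2, the mitochondrial rows called numbered 22, 30 and 37 in place of 59. The share of counts in mitochondrial ribosomal RNA rows was 2.58% and 3.32% in ME and 0.618% and 0.842% in OSC.

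Among the genes of the inner-membrane complexes, 3 of 5 tested atp genes and 2 of 3 cox genes were called higher in ME and none higher in OSC. The calls of atp9, with 4 and 6 counts in ME and 0 in OSC, and of cox2, with 10 and 4 counts in ME and 0 in OSC, were each lost when any 1 of the 4 libraries was left out. The atp8 call was lost without ME replicate 1 or OSC replicate 2. The atp6 gene encodes the membrane subunit of ATP synthase through which protons pass. It held 283 and 515 CPM in ME and 1.99 and 6.45 CPM in OSC, with 29.7 and 47.7 CPM in TAP and 4.97 and 7.35 CPM in FA. The ME libraries lay above all the others, and the TAP libraries lay between them and OSC. Its log2 fold change was 6.10 (SE 0.73, adjusted p = 0.00016, edgeR). The cox1 gene encodes the largest subunit of cytochrome c oxidase. It held 867 and 599 CPM in ME, 43.2 and 39.8 CPM in OSC, 137 and 98.8 CPM in TAP, and 61.9 and 61.9 CPM in FA. The groups were well apart, with a log2 fold change of 3.78 (SE 0.55, adjusted p = 0.000477, edgeR).

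Other respiratory genes were less clear. The cox3 gene, for another core subunit of that oxidase, held 1972 and 216 CPM in ME and 232 and 121 CPM in OSC, so the groups overlapped, and it was not called (adjusted p = 0.1, edgeR). The cob gene for cytochrome b was the only complex III row and was not called (log2 fold change 2.26, adjusted p = 0.407, edgeR). Of 4 tested nad genes for complex I, nad3 and nad9 were called higher in ME. The nad9 libraries of ME differed widely, at 45.2 and 3.58 CPM, and the call was lost with thinned libraries and without ME replicate 1, OSC replicate 1 or OSC replicate 2. The nad3 call was lost without those same 3 libraries, each left out in turn. The nad4 gene was the only mitochondrial row called higher in OSC, with 193 and 138 CPM in ME and 351 and 387 CPM in OSC. Its log2 fold change was -1.51 (SE 0.49, adjusted p = 0.0291, edgeR), which is close to the shift of all genes in the same fit. That call was lost with library totals, with no low-count filter, in a fit of only the 4 libraries, and without ME replicate 2, OSC replicate 1 or OSC replicate 2.

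Of 11 tested mitochondrial rps and rpl rows, for ribosomal proteins, 7 were called higher in ME and 0 higher in OSC. One of the 7, rpl2-ct, is annotated as a pseudogene. The rpl16 gene, for a protein of the large ribosomal subunit, held 192 and 417 CPM in ME and 0.664 and 0.379 CPM in OSC, which is 1 count in each OSC library. The pooled ratio of ME to OSC was 567, with an exact 95% counting interval from 156 to 4698, and the adjusted p was 7.78e-05 (edgeR). TAP held 64.7 and 72.7 CPM, between ME and OSC, and FA held 1.13 and 1.30 CPM. The mat-r gene encodes a maturase for group II introns, and it held 246 and 1200 CPM in ME and 27.2 and 27.3 CPM in OSC (log2 fold change 4.31, SE 0.82, adjusted p = 0.00217, edgeR). The large ribosomal RNA, rrn26, held 20848 and 25872 CPM in ME and 4215 and 6223 CPM in OSC (log2 fold change 1.79, SE 0.41, adjusted p = 0.00586, edgeR). The small ribosomal RNA, rrn18, held 3122 and 3229 CPM in ME and 1137 and 1457 CPM in OSC and was not called (adjusted p = 0.154, edgeR). Its libraries did not overlap.

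Cytochrome c maturation genes and transfer RNA rows were called in the ME direction where they were called. Of 4 tested ccm genes, ccmC and ccmFC were called higher in ME, and the ccmC call was lost without OSC replicate 1. The ccmFC call was lost with no low-count filter, in a fit of only the 4 libraries, and without ME replicate 2, OSC replicate 1 or OSC replicate 2. Of 11 tested transfer RNA rows, 6 were called higher in ME. The row trnD, annotated as a transfer RNA pseudogene, held 111 and 141 CPM in ME and 5.32 and 4.55 CPM in OSC (log2 fold change 4.28, SE 0.73, adjusted p = 0.00112, edgeR).

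Open reading frames of the mitochondrial genome, most of which have no known product, formed the largest group, with 32 of 68 tested rows higher in ME and 0 higher in OSC. The row orf1159 held 1646 and 3004 CPM in ME, 147 and 121 CPM in OSC, 36.9 and 30.7 CPM in TAP, and 393 and 431 CPM in FA. It was thus lowest in the tapetum and highest in meiocytes, and its log2 fold change was 3.72 (SE 0.54, adjusted p = 0.000434, edgeR). The row orf119-c held 199 and 317 CPM in ME and 0 and 0.379 CPM in OSC, a pooled ratio of 1002 with a 95% counting interval from 179 to 39677. The rows orf110-b and orf115-a2 had no count in OSC or FA. They were at least 37.5-fold and at least 40.1-fold higher in ME than in OSC. Open reading frames can lie beside or over other genes, and counts of overlapping rows cannot be told apart where strand was not used.

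**Figure D3:**
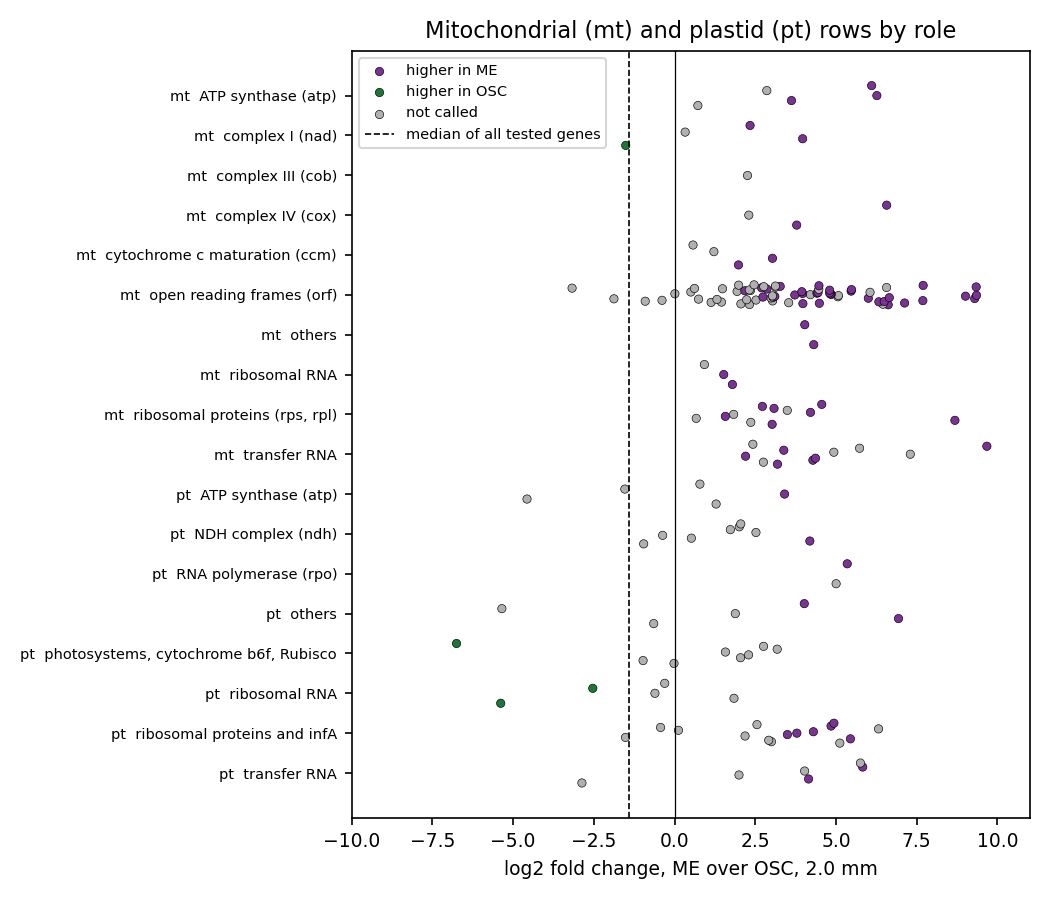
Each point is 1 tested mitochondrial (mt) or plastid (pt) row, placed by its fitted log2 fold change of ME over OSC at 2.0 mm and by the role of the gene. Purple points were called higher in ME, green points higher in OSC and grey points were not called. The dashed line is the median of all tested genes, -1.40, and most mitochondrial points lie to its right, with nad4 as the only green mitochondrial point.

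Plastid rows were called in both directions, mostly higher in ME. They took 0.185% and 0.359% of ME counts and 0.131% and 0.200% of OSC counts, so the groups overlapped, and 0.0588% and 0.0667% of TAP counts. Of 157 plastid rows, 54 were tested, 13 (24.1%) were called higher in ME and 3 (5.56%) higher in OSC, against 8.95% and 27.9% of all genes. Their median log2 fold change was 2.05, and it was 0 with no low-count filter. Without ME replicate 1 the plastid rows called numbered 9 in place of 16, and without either OSC library 8. Without OSC replicate 2 of 1.5 mm, which shares the fit, it was 10. Calls higher in ME were found for 6 of 15 ribosomal protein and infA rows, and for 0 of 8 rows of the photosystems, the cytochrome b6f complex and Rubisco. The median log2 fold change was 3.49 for the 15 rows and 1.81 for the 8 rows, so both medians were above 0.

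The rpoC2 gene, for a subunit of the plastid RNA polymerase, held 45.2 and 154 CPM in ME and 0.664 and 2.66 CPM in OSC (log2 fold change 5.35, SE 1.07, adjusted p = 0.00273, edgeR). The clpP gene, for the proteolytic subunit of the plastid Clp protease, held 34.9 and 60.8 CPM in ME and 0 and 0.379 CPM in OSC. The ndhC gene, for a subunit of the NDH complex, held 179 and 94.8 CPM in ME and 5.98 and 5.69 CPM in OSC (log2 fold change 4.19, SE 0.81, adjusted p = 0.00227, edgeR). In each of these genes both ME libraries lay far above both OSC libraries.

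The rps7 gene lies in 2 copies in the plastid genome, and its rows differed. The copy ZemaCp100 held 94.4 and 449 CPM in ME and 5.98 and 7.97 CPM in OSC and was called (log2 fold change 4.85, adjusted p = 0.000883, edgeR). The copy ZemaCp076 held 19.5 and 536 CPM in ME and 354 and 198 CPM in OSC and was not called (log2 fold change -0.43, adjusted p = 0.766, edgeR). Counting can split reads between such copies in ways the sources do not state, so both values are uncertain.

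Of 5 tested ribosomal RNA rows of the plastid, 2 were called higher in OSC and none higher in ME. One of them, ZemaCr119, lost its call under 8 of 13 alternatives, among them RLE factors and library totals and without ME replicate 1, OSC replicate 1 or OSC replicate 2. The row ZemaCr115 had a positive log2 fold change of 1.84 and was not called (adjusted p = 0.108, edgeR). The row ZemaCr114 held 2.05 and 32.2 CPM in ME and 315 and 715 CPM in OSC, with 1.88 and 4.02 CPM in TAP and 17.2 and 27.7 CPM in FA. OSC stood above every other group, and the log2 fold change was -5.38 (SE 1.0, adjusted p = 0.00183, edgeR). The plastid carries its ribosomal RNA genes in repeated copies, so this row is uncertain in the same way. The psaC gene, for the iron-sulfur subunit of photosystem I, was the only row of the photosystem group called, with 0 counts in ME and 4.65 and 11 CPM in OSC. It was at least 1.85-fold lower in ME (adjusted p = 0.0387, edgeR), and the call was lost without any 1 of the 4 libraries. Of the 75 organelle rows called, 23 were called in the same direction under all 13 alternatives, 16 mitochondrial and 7 plastid.

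**Figure D4:**
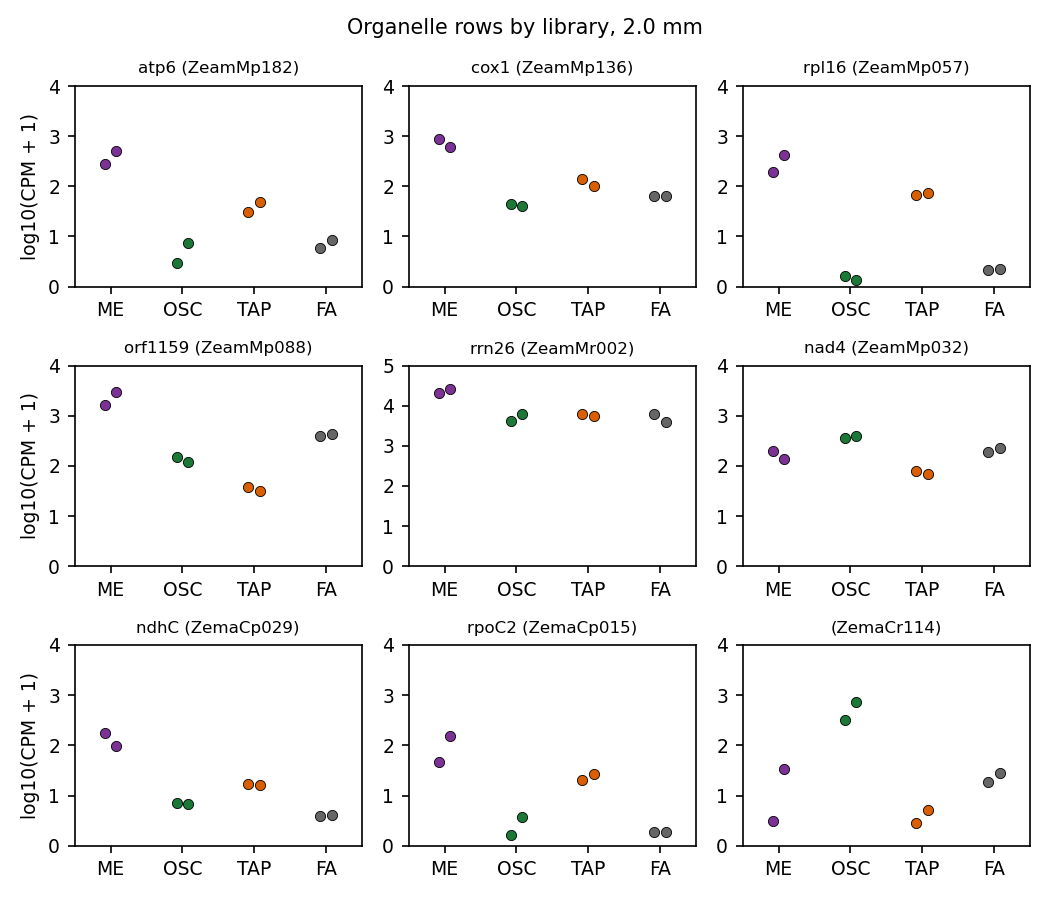
Each panel is 1 organelle row and each point 1 library of 2.0 mm anthers, with log10 of CPM plus 1 on the vertical axis and the groups ME, OSC, TAP and FA on the horizontal axis. The panel of rrn26 has a higher upper limit. ME is above OSC in the panels of atp6, cox1, rpl16, orf1159, rrn26, ndhC and rpoC2, and below it for nad4 and ZemaCr114, and in rpl16 the TAP libraries lie far above OSC.

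The non-coding rows, which carry no names here, gave 24 calls (24.5%) higher in ME and 3 (3.06%) higher in OSC among 98 tested, against 8.95% and 27.9% of all genes, with a median log2 fold change of 2.05. The calls numbered 27, against 17 without ME replicate 1, 11 without OSC replicate 1, 12 without OSC replicate 2 and 42 without ME replicate 2 of 1.5 mm. None of the 154 rows of microRNA genes passed the low-count filter, so they were not tested.

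Most of the called genes had the same direction at 1.5 mm, and 49.2% of them were called in it. The 1.5 mm libraries were not in the 2.0 mm contrast but shared its estimate of spread. Of the 1516 genes higher in ME at 2.0 mm, 1456 (96%) had the same direction at 1.5 mm and 849 (56%) were called in it, where 7.49% of all genes were called higher in ME at that length. Of the 4730 genes higher in OSC, 4330 (91.5%) had the same direction and 2226 (47.1%) were called in it, where 16.3% of all genes were called higher in OSC. In the opposite direction 0 and 9 were called. Calls shared by both lengths numbered 3075, against 1795 without OSC replicate 1 of 2.0 mm, 1741 without OSC replicate 2, and 1240 and 1574 without OSC replicate 1 and replicate 2 of 1.5 mm. Over all tested genes, 44.7% were higher in ME and 54.5% higher in OSC at 1.5 mm. The median log2 fold change was 3.41 at 1.5 mm and 4.29 at 2.0 mm for the genes higher in ME. For the genes higher in OSC it was -3.43 at 1.5 mm and -7.65 at 2.0 mm. The fitted sizes at 2.0 mm rest in part on genes at 0 in the lower group. With those genes set to their bound, the median sizes at 2.0 mm were 3.80 on the ME side and 3.46 on the OSC side. No bound was applied at 1.5 mm, where the ME libraries were deeper, at 2329806 and 2795716 counts. The genes were also chosen at 2.0 mm, so the medians of the lengths are not compared like with like. A change of these medians with length was not tested.

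**Figure D5:**
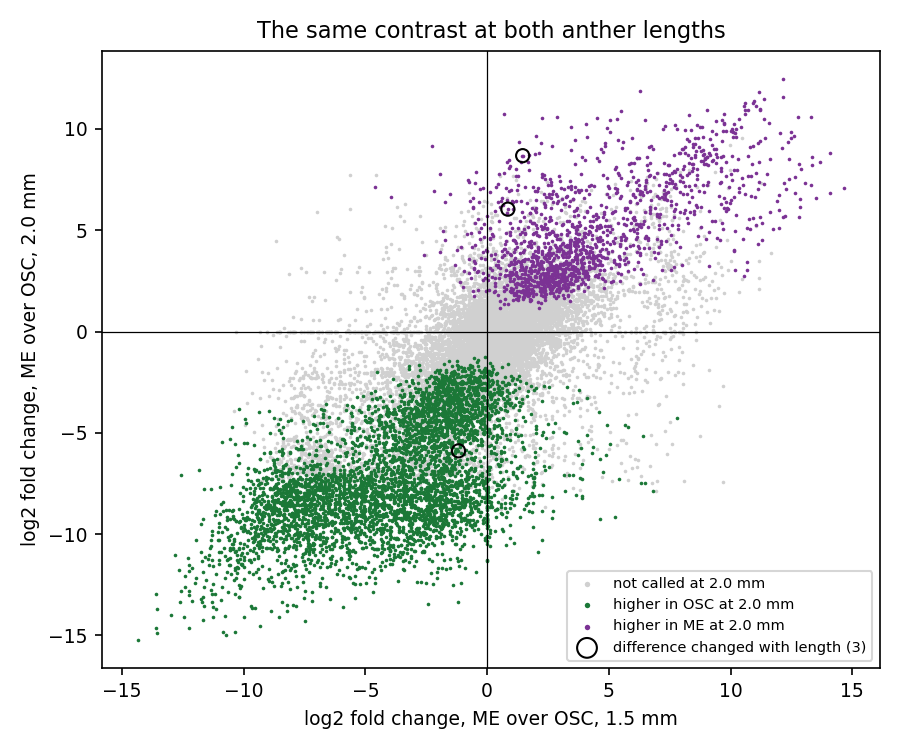
Each point is 1 tested gene, with its fitted log2 fold change of ME over OSC at 1.5 mm on the horizontal axis and at 2.0 mm on the vertical axis. Colours give the calls at 2.0 mm, purple for higher in ME and green for higher in OSC, and circles mark the 3 genes whose difference was called as changed with length. Most purple points have a positive value and most green points a negative value at 1.5 mm.

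The change of the difference with length was tested itself, and 3 genes (0.0177%) passed in edgeR's quasi-likelihood test, while 2270 had an unadjusted p under 0.05. They were 2 nuclear genes and mitochondrial rpl16. At 1.5 mm rpl16 held 414 and 246 CPM in ME and 167 and 121 CPM in OSC. At 2.0 mm the ME values were of the same order and the OSC values were 1 count a library. Its log2 fold change was 1.46 at 1.5 mm (adjusted p = 0.0736, edgeR), and the difference between the lengths was 7.22 (SE 0.98, adjusted p = 0.0286, edgeR). For atp6 the log2 fold change was 2.01 at 1.5 mm and the difference between the lengths did not pass (4.10, SE 0.86, adjusted p = 0.0709, edgeR). For plastid ndhC it was -1.09 at 1.5 mm, and the difference did not pass either (5.27, SE 1.06, adjusted p = 0.0578, edgeR). For orf1159 the values were 3.37 at 1.5 mm and 3.72 at 2.0 mm (difference 0.35, SE 0.68, adjusted p = 0.946, edgeR). Other mitochondrial rows called at 2.0 mm varied at 1.5 mm. There rrn26 held 30590 and 15404 CPM in ME and 23363 and 17356.5 CPM in OSC (log2 fold change 0.44, adjusted p = 0.444, edgeR). For ccmFC and the transfer RNA row trnR-a it was -0.04 and -0.98, while for cox1 it was 2.45 (adjusted p = 0.00574, edgeR). The difference between the lengths did not pass for any of these rows.

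The ME libraries of 1.5 mm anthers differed from each other for Zm00001d048165, which held 18198 CPM in replicate 1 and 397 CPM in replicate 2, against 22922 and 9075 CPM in OSC. The log2 fold change at that length was -0.58 (adjusted p = 0.742, edgeR), and the difference between the lengths did not pass (-8.73, SE 1.82, adjusted p = 0.0704, edgeR). Without ME replicate 2 of 1.5 mm, 238 genes passed the test of the difference between lengths in place of 3, and 2758 in place of 3075 were called in the same direction at both lengths. The contrast at 2.0 mm without that library gave 7024 calls in place of 6246. The difference between lengths was called for 67 genes without ME replicate 1 of 2.0 mm, for 7 without ME replicate 2, and for 0 without either OSC library of that length. It was called for 304 genes without ME replicate 1 of 1.5 mm, for 0 without either OSC library of 1.5 mm, for 1 without either TAP library of 1.5 mm and for 8 without either TAP library of 2.0 mm.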

How the data were processed

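RNA of captured cells and whole anthers was measured in 17 libraries of 8 groups, and the report uses ME and OSC at 2.0 mm with the other groups beside them. The deposited table gives the raw count of each of 46430 gene rows per library, as the authors made it, and a length in bases. No column of values was left unused. Reads were handled with fastp, Trim Galore and HISAT2, per the submitters' processing notes, with no version given. The counter, the genome build, the annotation, the use of strand and any collapsing of molecular identifiers are not given in the sources used here, so overlapping genes and near-identical copies are uncertain.

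Gene names were looked up by locus tag in RefSeq's table for Zm-B73-REFERENCE-NAM-5.0, from which no coordinates were taken. Every one of the 208 mitochondrial and 157 plastid rows was found. None of the 44146 nuclear rows matched, so lists of meiosis, tapetum, wall, photosynthesis, stress and other nuclear genes, and the cell type markers, could not be applied. The members and lists were chosen with earlier results of these data known.

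Counts of the 12 captured libraries were fitted together, 1 mean per group, with edgeR 4.0.16 (limma 3.58.1, R 4.3.3), TMM factors, robust quasi-likelihood and filterByExpr (minimum count 10, minimum total 15). The fit pools the spread over groups of 2 libraries, and its common biological coefficient of variation was 70.6%. Benjamini-Hochberg adjusted p-values under 0.05 over the 16940 rows tested are calls. Each SE is the absolute log2 fold change divided by the square root of the test's F statistic. It was thus worked back from the test and not estimated by the fit. CPM of single genes uses library totals, and folds against a group at 0 use a floor of 3 counts per library. Counting intervals and floors cover counting error only. Named nuclear genes were, in each direction, the call with the highest mean CPM and that with the largest fold change, among calls with libraries that did not overlap and a mean of at least 20 counts. Organelle rows with a symbol were taken in groups by role. The fits were also run on simulated counts with known folds in a small part of the genes. Those counts had a common spread and changes balanced in direction, so they do not test the fit under the shift seen here. Alternatives were RLE factors, library totals, no filter, DESeq2 1.42.0, a replicate block, a fit of all 17 libraries, a fit of only the libraries compared, nuclear rows only, thinning to 280760 counts, and each of the 12 fitted libraries left out, where 7 of those outside the contrast were added after seeing the data and give counts of calls only. Tables and figures used Python 3.11.15 with pandas 2.3.3, NumPy 2.4.6, SciPy 1.17.1 and matplotlib 3.10.9.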

Additional observations from a re-analysis of the deposited data

Results flagged for a closer look

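The difference between ME and OSC was not the same at both anther lengths for 3 genes, by the test of that difference in edgeR. One was mitochondrial rpl16, where the log2 fold change of ME over OSC was 7.22 higher at 2.0 mm than at 1.5 mm (SE 0.98, adjusted p = 0.0286, edgeR). Both OSC libraries of 2.0 mm anthers held 1 count of it, and those of 1.5 mm anthers held 167 and 121 CPM. The other 2 were nuclear rows without names.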

How the results depend on the processing

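No named gene reversed under any alternative. Over named genes and alternatives, 821 values kept their call and 180 lost it. The calls at 2.0 mm numbered 6159 with RLE factors, 5950 with library totals, 6617 with no filter, 6537 with DESeq2, 5871 with only the libraries compared and 8531 with all 17 libraries, where 2565 were higher in ME. With all 17 libraries, 4858 calls were shared in direction with 1.5 mm and 50 other non-nuclear, non-organelle rows were called, against 42 such rows with DESeq2. Plastid calls numbered 10 with only the libraries compared. The difference between lengths was called for 456 genes with no filter, 321 with DESeq2, 393 with all 17 libraries, 22 with thinned libraries, 1 with nuclear rows only and 0 with only the libraries compared.

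With the replicate number as a block, 5395 genes were called (1269 higher in ME, 4126 higher in OSC), 10 of them plastid, and 1 difference between lengths. Deviations of ME and OSC libraries with the same number had r = -0.0138 across genes. With 2 libraries per group, this value cannot show whether libraries with the same number came from the same plants.

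Leaving out each of the 12 fitted libraries in turn gave between 3148 and 7280 calls, 687 to 2065 higher in ME, 2461 to 5488 higher in OSC, 22 to 70 mitochondrial, 8 to 19 plastid, 11 to 42 in other classes, 0 to 304 differences between lengths, and 1240 to 2952 calls shared with 1.5 mm. A group left with 1 library is assumed to vary like the others. The cause of these changes was not tested. At the ME depth, a gene at 0 can hold up to 3.08 or 5.36 CPM, so absence from meiocytes is not shown.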
